A study of Mus musculus with 8 samples.

Results

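The genes described here are 10 protein-coding genes of the mouse mitochondrial genome (mtDNA): ND1, ND2, ND4, ND5 and ND6 of respiratory complex I, CYTB of complex III, COX1, COX2 and COX3 of complex IV, and ATP6 of complex V. They were taken by name, as the rows of the count table whose Entrez identifier belongs to these genes. They are 10 of 27179 genes in the table and 10 of its 15 mtDNA rows. All 10 passed the filter on low counts, which left 15649 genes to be tested. Polyadenylated RNA was sequenced from the cerebral cortex of mouse embryos in 4 wild-type libraries (Taf8 +/+ in the labels) and 4 Taf8-deleted libraries (Taf8 -/lox), with a separate embryo for each library. Taf8 is a nuclear gene for a subunit of TFIID, the complex that helps RNA polymerase II to start at nuclear promoters. A lox allele is removed only where a Cre recombinase is active, and neither the Cre driver nor the age of the embryos is stated in the sources used here.

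The mitochondrial genome is a small circle present in many copies per cell. It is not read by RNA polymerase II. A dedicated polymerase, POLRMT, transcribes both strands with the help of TFAM and TFB2M, and the long transcripts are cut into single RNAs, mostly at the tRNAs that lie between the genes. Most of these mRNAs then receive a tail of adenines inside the mitochondrion. The proteins they encode are core subunits of the proton-pumping complexes, which also need many subunits encoded in the nucleus. ND6 lies on the opposite strand from the other members.

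The tail is part of the message itself in several of these genes. The last 30 bases of a gene with a full stop codon and of 3 genes without one are shown here from GENCODE M21 transcripts of GRCm38, 5′ to 3′, with the stop codon or the leftover last base in capitals. They show where the added adenines complete the reading frame.
COX1: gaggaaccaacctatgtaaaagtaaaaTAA
ND4: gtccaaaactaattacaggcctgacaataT
COX3: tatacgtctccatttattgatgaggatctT
CYTB: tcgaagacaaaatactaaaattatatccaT
COX1 (chrM:6843-6872, plus strand) ends in an encoded TAA. ND4, COX3 and CYTB end in a single T after the last whole codon, and the tail supplies the rest of the stop codon.

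Some of these genes overlap each other, so a read can lie in both. ATP6 shares its first 43 bases with the end of ATP8, and the stretch is shown because counts for that overlap cannot be given to a single gene (chrM:7907-7989, plus strand, shared bases in capitals).
ATP8 and ATP6: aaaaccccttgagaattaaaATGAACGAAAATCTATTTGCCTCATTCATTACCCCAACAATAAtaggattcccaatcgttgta
ND4 shares 7 bases with ND4L on the same strand, and ND5 shares 14 bases with ND6 on opposite strands. Whether the counting used strand is not stated in the sources used here.

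Nuclear chromosomes also carry copies of mtDNA, and these bear directly on what a count means. Every 81-base window of each gene, 81 bases being the read length, was looked up in the GENCODE M21 transcripts of other chromosomes. COX2, ATP6 and COX3 had 99.5%, 99.5% and 99.9% of their windows whole in a nuclear pseudogene transcript. ND4 had 61.3%, COX1 37.1%, ND2 5.12% and ND5 0.975%, and ND1, ND6 and CYTB had 0%. The copies of 6 genes (COX2, ATP6, COX3, ND3, ND4L and the first part of ND4) lie together on chromosome 1, from 24611535 to 24615565, and are over 99% identical to mtDNA. A read inside such a window has at least 2 equally good places, and the sources used here do not say how such reads were counted. A window of ATP6 (chrM:8227-8307, plus strand) and of its copy Gm10925 (chr1:24614271-24614351, minus strand) shows the identity, with no base in capitals because no base differs.
ATP6: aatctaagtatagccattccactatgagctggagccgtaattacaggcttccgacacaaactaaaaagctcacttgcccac
Gm10925: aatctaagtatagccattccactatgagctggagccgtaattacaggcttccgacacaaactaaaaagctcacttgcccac
The closest copy of CYTB is Gm11410 on chromosome 4, 92.91% identical over 1142 bases. Copies outside the annotated transcripts were not searched. A window of CYTB and of Gm11410 (chrM:14676-14756 and chr4:80004520-80004600, plus strands) differs at the 6 bases in capitals. A read of this window can therefore be told apart from this copy.
CYTB: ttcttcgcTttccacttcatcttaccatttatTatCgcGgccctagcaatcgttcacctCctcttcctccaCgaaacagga
Gm11410: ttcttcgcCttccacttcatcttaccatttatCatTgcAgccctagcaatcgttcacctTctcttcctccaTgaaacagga
ND6 and its copy Gm11408 (93.64% identical) differ at 8 bases of the window shown (chrM:13771-13851 and chr4:80003615-80003695, minus strands).
ND6: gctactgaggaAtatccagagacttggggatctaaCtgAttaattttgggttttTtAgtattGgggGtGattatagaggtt
Gm11408: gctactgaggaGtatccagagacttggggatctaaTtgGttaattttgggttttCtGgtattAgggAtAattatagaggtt

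The level of each gene is given in CPM, edgeR's library-scaled counts, and per kilobase (kb) of gene where genes are compared. A level is therefore relative to the other counts of its library, and a change in the absolute amount of RNA was not tested. In wild-type cortex the levels per kb fell into tiers. COX1 stood at 2397 ± 173 CPM per kb (SD, n = 4 in each group, here and below), CYTB at 2041 ± 149 and ND1 at 1751 ± 172. The ranges of neighbours in this order overlapped, and all lay above ND2 at 749 ± 177, ND5 at 529.98 ± 94.99 and ND4 at 529.7 ± 71.7 CPM per kb, which overlapped each other. ND6, the member on the opposite strand, was at 15.5 ± 4.76 CPM per kb. The lowest tier held COX2 at 4.69 ± 0.79, COX3 at 3.37 ± 0.63 and ATP6 at 2.62 ± 0.55 CPM per kb, again with overlapping neighbours. The order of the means was the same in Taf8-deleted cortex except that ATP6, at 3.67 ± 0.73, came above COX3, at 3.61 ± 0.65 CPM per kb, with overlapping ranges.

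The lowest members were those with nearly all of their windows in nuclear copies. The 5 mtDNA genes with over 90% of windows shared (COX2, COX3, ATP6, ND3 and ND4L) had 1.91 to 4.69 CPM per kb in wild-type cortex. COX2, at 0.196% of the COX1 level per kb, codes for a subunit of the same complex as COX1. ATP8 had no shared window and still only 0.67 ± 0.53 CPM per kb, from 1 to 18 counts per wild-type library. Its gene lies between COX2 and ATP6. The copies of COX2 and ATP6 on chromosome 1 are 233 bases apart, as are the aligned part of COX2 and ATP6 in mtDNA. The chromosome 1 sequence between those copies was not compared with mtDNA. The levels of these genes therefore describe what was counted. The same holds for ND4 and COX1, with 61.3% and 37.1% of windows shared, and for their places in the order of levels. Whether these levels describe the amount of RNA was not tested.

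**Figure D1:**
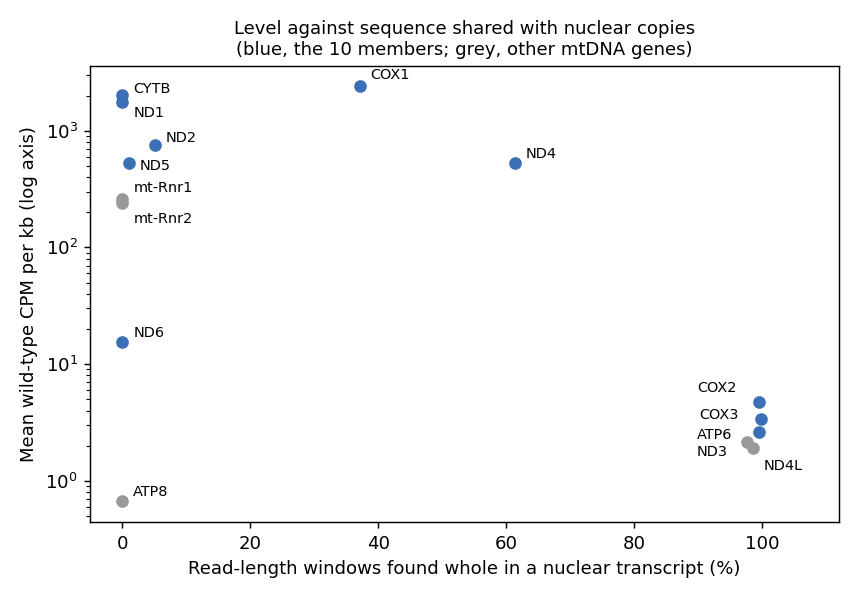
Mean wild-type level (CPM per kb, log axis) against the share of 81-base windows found whole in a nuclear transcript (%), 1 point per mtDNA gene, with the 10 members in blue and other mtDNA genes in grey. COX2, COX3, ATP6, ND3 and ND4L stand apart at the lower right, and ATP8 is low with no shared window.

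The deletion was read first in Taf8 itself (Entrez gene 63856), the nuclear gene that defines the groups. It fell from 34.8 ± 2.75 CPM in wild-type to 0.643 ± 0.149 CPM in Taf8-deleted libraries. The log2 fold change was -5.75 (SE 0.12), with an adjusted p of 1.45e-09 by edgeR's quasi-likelihood test. Libraries held 26312505 to 65523487 counts, so 3 counts stand for 0.0458 to 0.114 CPM, and each abundant member had at least 20576 counts in every library. Wild-type replicate 3 was the deepest library and was the highest of its group in all 10 members. Taf8-deleted replicate 2 was the lowest of its group in all 10. Animal numbers 408.4, 408.5 and 408.6 of wild-type replicates 1 to 3 share their first part and no number shares its first part across groups. Anything that this part marks, such as a litter, cannot be told apart from the genotype.

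Between the groups, 6 of the 10 members were higher in Taf8-deleted cortex by edgeR's test at an adjusted p under 0.05, and 0 were lower. The 6 were ND1, ND2, ND4 and ND5 of complex I, CYTB of complex III and COX1 of complex IV. The study as a whole changed widely: 59.2% of the 15649 genes tested were called, 29.5% higher and 29.6% lower, so a call alone does not set a member apart. The median log2 fold change was 0.43 over the 10 members and 0.01 over all genes tested, whose middle 50% ran from -0.26 to 0.28. In 5 members every deleted library lay above every wild-type library, as it did in 26.6% of all genes tested. Against a change of at least 1.2-fold, 3 members were higher (CYTB, ND1 and ND5), beside 14.7% of all genes.

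ND1, ND4 and ND5, core subunits of the membrane arm of complex I, which passes electrons from NADH to ubiquinone, all rose. ND1 (Entrez 17716, MT 2751 to 3707) had 1570, 1684, 1905 and 1543 CPM in wild-type replicates 1 to 4 and 2411, 2021, 2225 and 2553 CPM in Taf8-deleted replicates 1 to 4. All deleted libraries lay above all wild-type libraries, and the log2 fold change was 0.46 (SE 0.08, adjusted p = 0.000614, edgeR). ND5 (Entrez 17721, MT 11742 to 13565), which closes the far end of that arm, had 877, 927, 1221 and 841 CPM in wild-type and 1477, 1228, 1357 and 1618 CPM in deleted libraries. Its log2 fold change was 0.56 (SE 0.12, adjusted p = 0.0021, edgeR), the largest among the members, and the groups met without overlapping: the highest wild-type library, at 1221 CPM, was just under the lowest deleted library, at 1228 CPM. ND4 (Entrez 17719, MT 10167 to 11544) had 689, 664, 877 and 690 CPM in wild-type and 979, 888, 919 and 1011 CPM in deleted libraries. Its groups were also close, at 877 against 888 CPM, and its log2 fold change was 0.38 (SE 0.08, adjusted p = 0.00265, edgeR).

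ND2 and ND6 were less certain. ND2 (Entrez 17717, MT 3914 to 4951) had 683, 710, 1051 and 665 CPM in wild-type and 1065, 852, 947 and 1238 CPM in deleted libraries. Wild-type replicate 3 lay within the deleted range, and the log2 fold change of 0.40 (SE 0.15, adjusted p = 0.0437, edgeR) was just past the threshold. That call was made under 10 of 21 alternative settings. ND6 (Entrez 17722, MT 13552 to 14070, minus strand) had 8.26, 7.18, 11.3 and 5.39 CPM in wild-type and 11.1, 9.25, 11.8 and 12.1 CPM in deleted libraries. Here too wild-type replicate 3 lay within the deleted range, and the log2 fold change of 0.45 (SE 0.19, adjusted p = 0.0605, edgeR) did not pass. Relative to the other 9 members, ND6 held 0.561 to 0.963 counts per 1000 in wild-type and 0.762 to 0.881 in deleted libraries. The ranges of this ratio overlapped between the groups. Whether selection for poly(A) keeps ND6 RNA as well as that of the other members was not tested, so the ratio describes counts.

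CYTB, the mtDNA-encoded subunit of complex III and the site of its ubiquinone chemistry, gave the smallest adjusted p among the members. CYTB (Entrez 17711, MT 14145 to 15288) had 2279, 2294, 2580 and 2185 CPM in wild-type and 3559, 3028, 3285 and 3457 CPM in deleted libraries. The deleted libraries all lay well above the wild-type range, at 1.43-fold (1.31 to 1.55 within 2 SE), and its log2 fold change was 0.51 (SE 0.06, adjusted p = 3.46e-05, edgeR).

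Of the 3 mtDNA-encoded subunits of complex IV, which reduces oxygen, COX1 had far more counts than COX2 and COX3 and alone passed the test. COX1 (Entrez 17708, MT 5328 to 6872), the catalytic core, had 3416, 3670, 4063 and 3662 CPM in wild-type and 4739, 4111, 4631 and 5052 CPM in deleted libraries. Its groups did not overlap, though deleted replicate 2 was close to wild-type replicate 3, and the log2 fold change was 0.32 (SE 0.06, adjusted p = 0.00145, edgeR). COX2 (Entrez 17709, MT 7013 to 7696), which takes electrons from cytochrome c, had 2.56, 3.02, 3.80 and 3.47 CPM in wild-type and 4.06, 3.64, 4.19 and 4.13 CPM in deleted libraries. Its log2 fold change of 0.31 (SE 0.13, adjusted p = 0.0651, edgeR) was close to that of COX1 in size and did not pass, with deleted replicate 2 just below wild-type replicate 3. COX3 (Entrez 17710, MT 8607 to 9390) had 2.46, 2.37, 3.38 and 2.36 CPM in wild-type and 3.09, 2.08, 2.95 and 3.19 CPM in deleted libraries. Its groups overlapped widely, and its log2 fold change was 0.09 (SE 0.17, adjusted p = 0.668, edgeR), a fold change between 0.839 and 1.36 within 2 SE.

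ATP6 (Entrez 17705, MT 7927 to 8607), which forms part of the proton channel of the ATP synthase, had 1.43, 1.74, 2.31 and 1.66 CPM in wild-type and 2.77, 1.85, 2.39 and 2.98 CPM in deleted libraries. Wild-type replicate 3 again lay within the deleted range, and the log2 fold change of 0.48 (SE 0.19, adjusted p = 0.0523, edgeR) did not pass. For COX2, COX3 and ATP6, with 43 to 243 counts a library, counting error alone was 8.43% to 12.01% of the level, against 0.249% to 0.587% for the 6 abundant members. The spread between wild-type embryos was 7.23% for COX1 and 7.31% for CYTB but 23.6% for ND2 and 30.8% for ND6, well above the 5.73% that counting gives ND6.

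**Figure D2:**
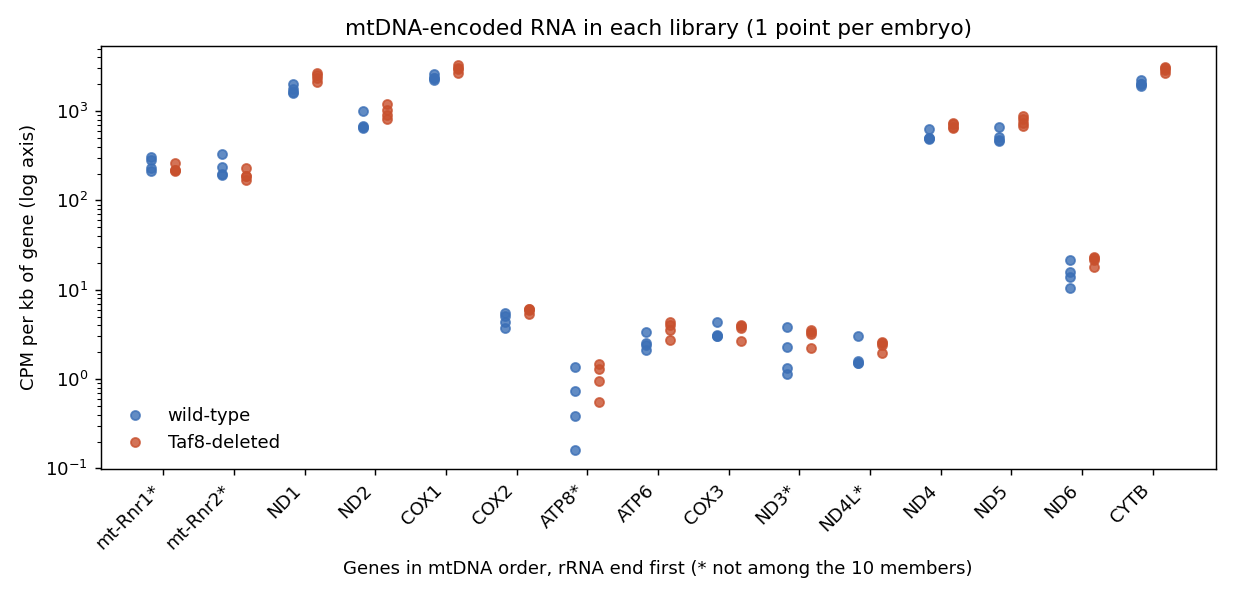
Level of each mtDNA gene (CPM per kb, log axis) in mtDNA order, with 1 point per library, wild-type in blue and Taf8-deleted in orange, and genes that are not members starred. ND1, COX1, ND4, ND5 and CYTB show every deleted library above every wild-type library, while mt-Rnr1 and mt-Rnr2 do not.

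Leaving out wild-type replicate 3 moved the count of calls most. Without it, 9 of the 10 members were higher by edgeR's test, all but COX3, beside 30.0% of all genes. The adjusted p then was 0.0132 for ATP6, 0.0215 for COX2 and 0.00221 for ND6. The deleted libraries lay above the other wild-type libraries in 9 members, beside 29.8% of all genes. Leaving out other libraries gave 5 to 7 higher members. In all 21 alternative settings ND1, ND5 and CYTB were higher, and COX1 and ND4 were higher in 20, all but the test against a 1.2-fold change.

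The mtDNA genes outside the chosen group put these values in context. ND3 and ND4L, of complex I, had log2 fold changes of 0.45 (SE 0.35) and 0.33 (SE 0.26), neither past the test (adjusted p = 0.287 and 0.286, edgeR), and ATP8 was too low to be tested. The ribosomal RNAs of the mitochondrion, which come from the start of the same strand as most members, were not higher. mt-Rnr1 had 219, 272, 294 and 203 CPM in wild-type and 209, 204, 207 and 252 CPM in deleted libraries (log2 fold change -0.18, SE 0.12, adjusted p = 0.2, edgeR). mt-Rnr2 had 310, 375, 528 and 308 CPM in wild-type and 297, 269, 295 and 367 CPM in deleted libraries (log2 fold change -0.31, SE 0.16, adjusted p = 0.127, edgeR). The ranges of both genes overlapped between the groups. These RNAs have at most short adenine tails, so after selection for poly(A) their counts need not follow their amount.

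**Figure D3:**
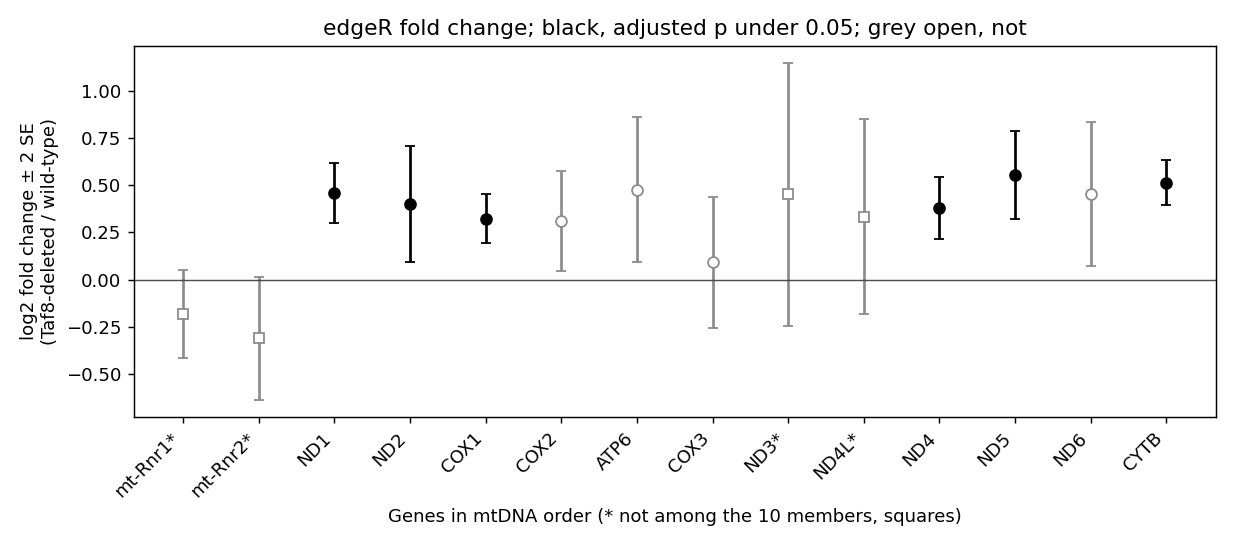
Log2 fold change of Taf8-deleted over wild-type with bars of 2 SE, for the mtDNA genes tested in mtDNA order. Filled black points passed an adjusted p of 0.05 and open grey ones did not, and squares with starred names are not members: the 10 members lie from 0.09 to 0.56 and both rRNA genes lie below 0.

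As a share of all counts, the 10 members took 0.938%, 0.979%, 1.14% and 0.958% in wild-type and 1.44%, 1.24%, 1.36% and 1.501% in Taf8-deleted libraries. The deleted share was higher in every library, and the mean was 1.38 times the wild-type mean. Between 99.82% and 99.87% of these counts fell in ND1, ND2, ND4, ND5, COX1 and CYTB, so the share says little about the other members. For each mitochondrial rRNA count there were 18.0, 15.4, 14.3 and 18.8 member counts in wild-type and 28.2, 25.7, 26.7 and 24.1 in deleted libraries. This ratio needs no scaling by library, and its groups did not overlap. Its mean in deleted libraries was 1.58 times the wild-type mean, or 1.5 times without wild-type replicate 3. The rRNA counts in it are those left after selection for poly(A), 0.0485% to 0.0802% of all counts. The ratio therefore need not follow the amounts of RNA.

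The make-up of the member counts also differed slightly between the groups. There were 0.667, 0.625, 0.635 and 0.597 CYTB counts per COX1 count in wild-type and 0.751, 0.737, 0.709 and 0.684 in deleted libraries, again without overlap. COX1 took 34.7% to 38.1% of member counts in wild-type and 33.3% to 34.6% in deleted libraries. Its share of member counts was thus lower in the deleted libraries while its CPM was higher. COX3 took 0.0238% to 0.0288% in wild-type and 0.0171% to 0.0221% in deleted libraries. With 64 to 216 COX3 counts a library, counting error alone was 9.81% of its level in wild-type and 10.2% in deleted libraries. Whether the gap in its share exceeds counting error was not tested. The shares of the other 8 members overlapped between the groups. These sums, shares and ratios are descriptions and were not tested.

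**Figure D4:**
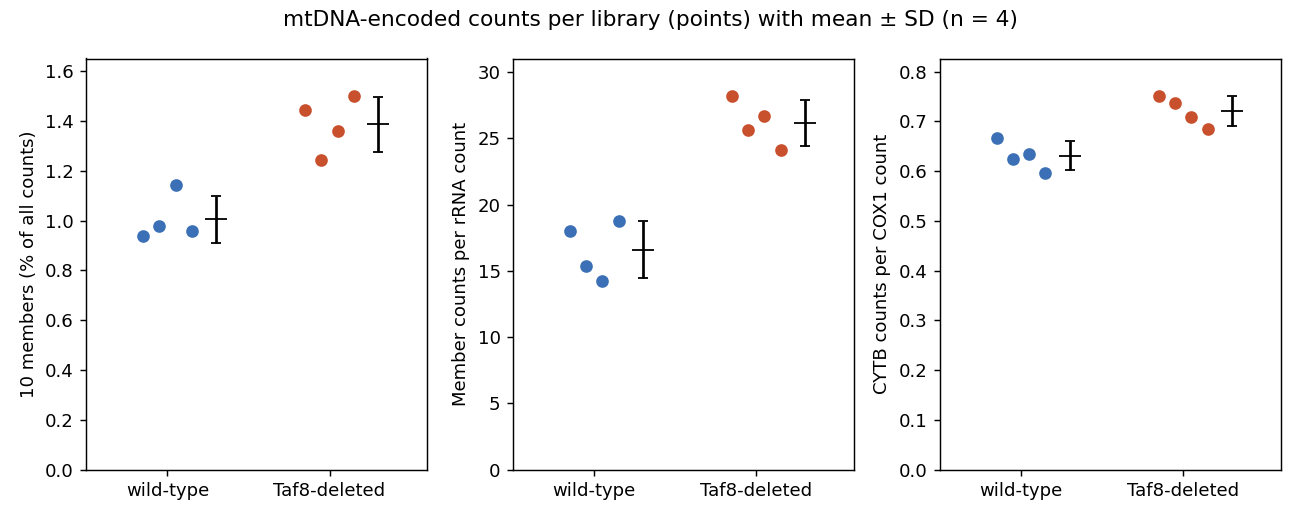
Share of all counts in the 10 members (%), member counts per mitochondrial rRNA count, and CYTB counts per COX1 count, with 1 point per library and the mean ± SD (n = 4) beside each group. The wild-type and Taf8-deleted points do not overlap in any of the 3 panels.

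Within the groups the members rose and fell together from embryo to embryo. Over the 8 libraries, each taken relative to its group mean on the log2 CPM scale, the 45 pairs of members had Pearson's r from 0.266 (ND6 and COX2) to 0.993 (ND2 and ND5), with a median of 0.856. The points share library depth and scaling and rest in large part on wild-type replicate 3, so these are descriptions. Among 11123 nuclear genes with at least 5 CPM, those whose deviations were most like the mean of the members were Lin52 (r = 0.998), Casp8ap2 (0.995), Lin7a (0.993), Mbip (0.993) and Marchf1 (0.992), over the same 8 libraries.

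The nuclear genes that transcribe mtDNA did not move in a single direction. Of 11 tested, 3 rose, 2 fell and 6 had no call. That is 27.3% higher and 18.2% lower, beside 29.5% and 29.6% of all genes tested. The list's median log2 fold change was 0.05. Tfam, which packages mtDNA and bends its promoters, rose from 66.7 ± 1.21 to 81.4 ± 1.68 CPM (log2 fold change 0.29, adjusted p = 4.63e-05, edgeR). Tfb2m, which opens the promoter for the polymerase, rose from 10.8 ± 0.08 to 13.1 ± 0.72 CPM (adjusted p = 0.00297, edgeR). Tfb1m, which methylates the small rRNA, rose from 10.5 ± 0.52 to 15.5 ± 0.59 CPM (log2 fold change 0.56, adjusted p = 2.91e-05, edgeR). The polymerase gene Polrmt was at 48.2 ± 2.72 and 49.8 ± 1.14 CPM (adjusted p = 0.385, edgeR). Tefm, the elongation factor, fell from 9.75 ± 0.94 to 7.50 ± 0.54 CPM, and Mterf2, of the termination factor family, fell from 16.6 ± 0.74 to 9.91 ± 0.45 CPM (adjusted p = 0.00459 and 4.07e-06, edgeR). The other members of this list did not pass: Mrpl12 had a log2 fold change of 0.12, Mterf3 of 0.11, Mterf1a of -0.06, Mterf4 of -0.07 and Mterf1b of -0.17.

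The counts of the lists that follow stand beside 29.5% higher and 29.6% lower over all genes tested, and no difference between a list and all genes was tested. Of 19 genes for mtDNA replication and upkeep, 12 were higher, 2 were lower and 5 had no call (median log2 fold change 0.25). Tk2, the mitochondrial thymidine kinase, rose 1.72-fold, Twnk, the mtDNA helicase, rose 1.37-fold, and Slc25a4, an ADP/ATP carrier, rose 1.32-fold, while Mpv17, an inner membrane protein needed to keep mtDNA, fell 1.31-fold. A broad list for mitochondrial RNA processing, modification and decay had 14 genes higher and 8 lower of 27 (median 0.13). Not every gene of that list, such as Ptcd3, acts mainly in those steps. Rpusd3, a pseudouridine synthase, rose 1.68-fold, Angel2 rose 1.37-fold and Ptcd3 rose 1.22-fold, and Alkbh7 fell 2.03-fold. Of 14 translation factors tested, 6 were higher and 4 lower (median 0.08). Mrrf, which recycles mitochondrial ribosomes, fell 1.94-fold, Oxa1l, which inserts these proteins into the inner membrane, fell 1.28-fold, and Mtfmt, which formylates the initiator tRNA, rose 1.32-fold. Taco1, a translational activator of the COX1 message, rose 1.28-fold.

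The nuclear partners of these proteins were called in both directions. Of 75 nuclear subunits of complexes I, III, IV and V tested, 16 rose, 26 fell and 33 had no call. Their median log2 fold change was -0.04, and 56% were called, beside 59.2% of all genes. In complex I 9 were higher and 14 lower of 36. Ndufb2, Ndufs4 and Ndufs8 fell 1.75-fold, 1.45-fold and 1.45-fold, and Ndufs5, low in wild-type cortex at 0.654 ± 0.143 CPM, was at 8.72 ± 3.05 CPM in deleted cortex (log2 fold change 3.76, adjusted p = 1.05e-06, edgeR). In complex III 4 were higher and 3 lower of 9, and Cyc1, the cytochrome that sits beside the CYTB protein, rose 1.27-fold. Uqcr11 and Uqcrq rose 1.28-fold and 1.25-fold and Uqcrh fell 1.19-fold. In complex IV 2 were higher and 3 lower of 15, with Cox7a2l lower by 1.63-fold, Cox6b2 by 1.76-fold and Cox5a by 1.12-fold, and Cox4i1 higher by 1.09-fold. The higher count in complex IV fell to 0 when any 1 of wild-type replicates 1, 2 and 4 or deleted replicates 2, 3 and 4 was left out, and Cox4i1 was called in 12 of 21 alternative settings. In complex V 1 was higher and 6 lower of 15. Atp5e was lower by 1.30-fold, Atp5g2 by 2.13-fold, Atp5j by 1.14-fold and the catalytic subunit Atp5b by 1.14-fold. Atp5g2 was low, at 1.27 ± 0.16 CPM in wild-type and 0.593 ± 0.066 CPM in deleted libraries. The higher count in complex V fell to 0 when any 1 of the same libraries was left out.

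Assembly factors of the complexes were higher in 19 and lower in 10 of 40 (median 0.14). A pair of factors that act on the CYTB protein went in opposite directions: Uqcc2 fell 2.09-fold and Uqcc3 rose 1.80-fold. Foxred1, of complex I assembly, rose 1.56-fold and Coa7, of complex IV assembly, fell 1.85-fold. Genes taken as a measure of mitochondrial mass (import receptors, matrix enzymes, porins and chaperones) were higher in 4 and lower in 8 of 22 (median -0.06), with 2 higher without wild-type replicate 2 or deleted replicate 2 or 3. Among them Cs, citrate synthase, fell 1.21-fold, Ogdh 1.58-fold, Pdha1 1.44-fold and the import receptor Tomm22 1.32-fold. Regulators of mitochondrial biogenesis were higher in 4 and lower in 3 of 12 (median 0.01), with Esrra higher by 1.16-fold, Perm1 by 2.13-fold, and Gabpb2 and Hcfc1 lower by 1.49-fold and 1.30-fold; 5 were lower without wild-type replicate 4. Of 16 genes of the mitochondrial stress response, 3 were higher and 4 lower (median -0.09), with 1 higher without deleted replicate 2. The protease gene Lonp1 rose 1.30-fold, and Hspd1, Ddit3 and Chac1 fell 1.16-fold, 1.18-fold and 1.37-fold. Every named fall or rise in these lists was past an adjusted p of 0.05 by edgeR's test, and the lists overlap in a few genes, such as Taco1 and Hspd1.

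**Figure D5:**
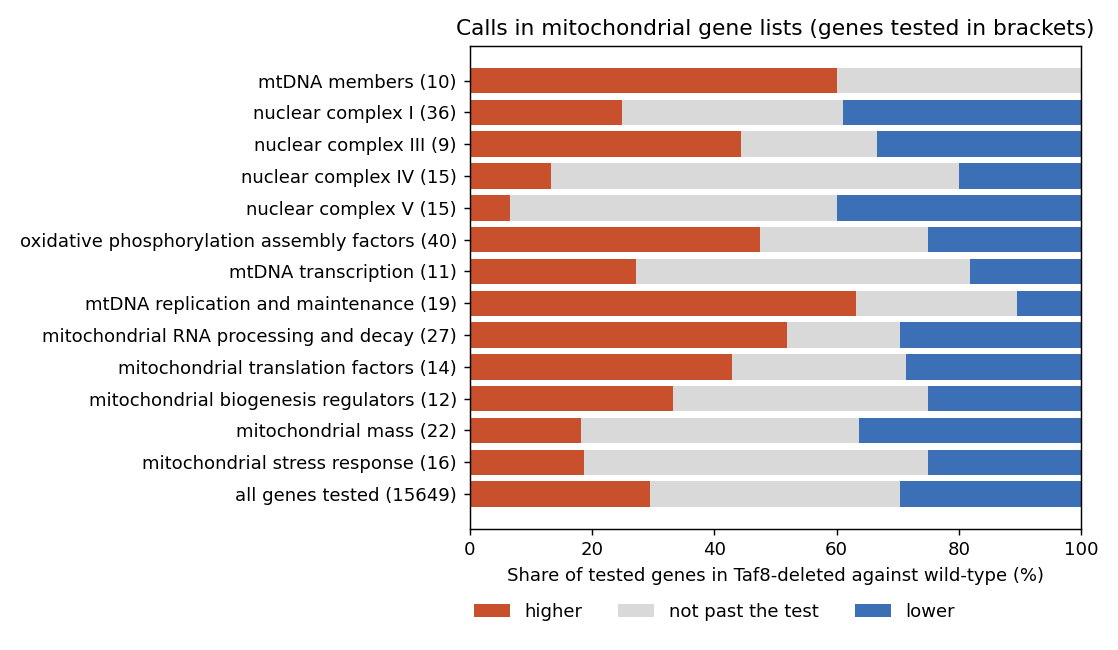
Share of tested genes (%) called higher (orange), not past the test (grey) or lower (blue) in Taf8-deleted against wild-type cortex, for each gene list and for all 15649 genes tested, with the number tested in brackets. The mtDNA members have 6 of 10 higher and 0 lower, while nuclear complex V has 1 of 15 higher and 6 lower.

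RNA of cell type markers also differed between the groups. Of 12 cortical neuron markers, 11 were lower, and their summed level was 6958 to 8311 CPM in wild-type and 5073 to 5752 CPM in deleted libraries. Among them Neurod6 fell 2.56-fold and Neurod2 1.78-fold. Of 10 neural progenitor markers 6 were higher and 3 lower, with a summed level of 2558 to 2884 CPM in wild-type and 3417 to 3770 CPM in deleted libraries. Nes rose 1.90-fold and Vim 1.51-fold, and Fabp7 fell 1.43-fold. All 12 endothelial and pericyte markers were higher (204 to 217 against 246 to 313 CPM summed), as were 5 of 9 red blood cell markers (259 to 338 against 350 to 472 CPM), 6 of 10 meningeal fibroblast markers (55.8 to 90.5 against 71.9 to 215 CPM, overlapping) and 5 of 10 microglia markers (47.7 to 54.1 against 52.5 to 70.1 CPM, overlapping, with 1 lower). Red blood cell markers higher fell to 2 without deleted replicate 2, and meningeal markers higher ranged from 3 without deleted replicate 3 to 9 without deleted replicate 4. Wild-type replicate 3, highest of its group in the members, had its group's highest neuron sum (8311 CPM) and lowest progenitor sum (2558 CPM). Deleted replicate 2, lowest of its group in the members, had its group's lowest neuron sum (5073 CPM) and highest progenitor sum (3770 CPM). These libraries were picked for their member levels, and a link between markers and members within groups was not tested. No marker was at 0 in all libraries. In bulk RNA, fewer cells of a type and less RNA per cell cannot be told apart, and the part of these shifts in the member levels was not tested.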

How the data were processed

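The deposited values are unnormalized whole-number counts of reads for each Entrez gene, for 4 wild-type and 4 Taf8-deleted libraries grouped by the labels. Per the labels' protocols, RNeasy RNA went into a TruSeq Stranded mRNA kit. The submitters' processing notes name Subread 1.5.0, featureCounts and mm10. Which annotation and strand setting were used, and how reads with several matches were treated, is not stated in the sources used here. The deposited table also gives a gene length, used for levels per kb. Its counts differed from the single-sample files in 0 values, and the chi-square of within-group pairs was at least 3.7 per degree of freedom, so each library entered as its own replicate.

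Symbols and coordinates are RefSeq's (GRCm38.p6), and sequences are GENCODE M21 transcripts of GRCm38, the sequence of mm10. Windows of 81 bases were matched exactly, and the closest copies were found with blastn. The main test was the quasi-likelihood F-test of edgeR 4.0.16 (R 4.3.3) on group alone, with TMM scaling and the filterByExpr filter. Benjamini-Hochberg adjustment ran over all 15649 genes, and calls were made at 0.05. The steps were tested on simulated data. Each SE was derived from the log2 fold change and its F statistic. CPM uses TMM-scaled library sizes. The 3-count floor covers counting error only. The p-values set each difference against the spread between these embryos, which edgeR estimates partly from all genes.

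The members and gene lists were chosen with earlier results of these data known. Of 320 listed symbols 318 matched a row. Named are Taf8, all mtDNA genes, all tested genes of mtDNA transcription, up to 4 genes of each other list by smallest adjusted p, and the 5 genes most like the members. Alternatives were other scalings and filters, the single-sample files, DESeq2 1.42.0, limma 3.58.1 voom (also with quality weights), a replicate block, each library left out, a 1.2-fold test and a threshold of 0.01. Some genes that the rule names are not reported here.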

Additional observations from a re-analysis of the deposited data

Results flagged for a closer look

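In 14 of 212 groups of 4 libraries, a single library stood apart from the others by more than Dixon's 95% critical value, and chance flags about 1 in 20 groups. Wild-type replicate 3 was such a library, on the high side, for ND2 at 1051 CPM (the others at 665 to 710), ND4 at 877 CPM (664 to 690) and COX3 at 3.38 CPM (2.36 to 2.46). It was also apart for the ratio of ND5 to ND1 counts, 0.641 (0.545 to 0.558), for the ratio of ND2 to ND1 counts, 0.552 (0.422 to 0.435), and for Mterf4 at 23.4 CPM (19.7 to 20.04). In the wild-type group, replicate 1 had ND4L at 0.896 CPM (0.449 to 0.473), replicate 2 had Foxc1 at 3.74 CPM (2.97 to 3.03), and replicate 4 had Angel2 at 88.0 CPM (95.1 to 95.6) and Foxred1 at 34.3 CPM (33.1 to 33.3). In the Taf8-deleted group, replicate 4 had mt-Rnr1 at 252 CPM (204 to 209), Syn1 at 63.1 CPM (60.1 to 60.4) and Hba-a1 at 53.0 CPM (72.5 to 76.2), and replicate 1 had Ndufs5 at 13.3 CPM (6.73 to 7.50).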

How the results depend on the processing

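No member was lower and no log2 fold change of an mtDNA gene changed sign under any alternative run. The 6 higher members became 3 under the test against a 1.2-fold change, with 2307 genes higher and 2328 lower in all. Under that test the lists shrank too: replication and upkeep of mtDNA had 5 higher and 2 lower, RNA processing 4 and 3, mtDNA transcription 1 and 1, and nuclear complex I 3 and 10. Leaving out each library gave 5 to 9 higher members, with 3999 to 4721 genes higher and 4405 to 4729 lower. Without wild-type replicate 3, chosen after seeing the data for the values without a test, 9 members in place of 5 had all deleted libraries above wild-type. All genes higher numbered 4624 in the main fit. A threshold of 0.01 gave 5 higher members, with 3511 of all genes higher, and scaling without the mtDNA rows gave 5, with 4436. At least 1 CPM in 4 libraries gave 7, with 4306 of 13974 genes tested. Library size alone, upper-quartile scaling and voom with quality weights gave 9, with 5255, 5062 and 4995 of all genes higher. The median of all genes stayed between -0.0086 and 0.052 under these settings. With the replicate block, 4115 genes and 6 members were higher: ND2 no longer passed (adjusted p = 0.0537) and ND6 did (adjusted p = 0.0396, edgeR). Same-numbered libraries did not deviate together (r = -0.285, 0.0138, -0.0668 and -0.464). The labels link them by number only, and whether they share anything else was not tested. Across mtDNA genes and alternatives, 261 comparisons kept their side of the threshold, 19 passed it newly and 13 lost it. COX2, COX3, ATP6, ND3, ND4L and ATP8 were each under 5 CPM, and the reason for their low counts was not tested.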
